A study of Mus musculus with 12 samples.

Results

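Genes of the Bcl2 family and the death receptor gene Fas were followed in the male gonad of mouse embryos, in 2 strains at 3 embryonic stages. The members are 8 genes, Bcl2, Bcl2l1, Mcl1, Bcl2l11, Bid, Bak1, Bax and Fas, of the 18032 genes represented on the array. A member was read through probe sets, groups of short probes on the array, that the platform annotation assigns to that gene alone. The probe set with the highest mean signal over all 12 arrays gives the gene's value, and its other probe sets serve as a check. By this rule 7 of the 8 genes had a probe set, with 26 of the 45037 probe sets tested between them. Bcl2 had 5, Bcl2l1 4, Bcl2l11 5, Mcl1 6, Bid 3, Bak1 2 and Fas 1, and Bax had none in the annotation used here and was not analysed here.

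Total RNA came from male genital ridges, which are labelled as testis, of untreated embryos at E13.5, E15.5 and E17.5. One strain was 129/Sv (129 below). The other was 129.MOLF-Chr 19 (M19 below), a chromosome substitution strain in which chromosome 19 comes from MOLF mice while the rest of the genome is 129, and whose males are known for a high rate of testicular germ cell tumours. Each of the 6 groups was measured on 2 Affymetrix arrays. Per the labels, a pool of 40 testis pairs served 2 arrays. The arrays of a group may thus share a pool, and the p-values then measure the spread between arrays, which may be technical.

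Apoptosis through mitochondria is set by the balance within the Bcl2 family. Bcl2, Bcl2l1 (Bcl-xL) and Mcl1 keep cells alive by holding back the pore-forming effectors Bax and Bak1. BH3-only proteins such as Bcl2l11 (Bim) and Bid tip the balance towards death, and Fas is the cell surface receptor that starts the second route, which joins the first when caspase-8 cuts Bid. In the fetal testis this machinery is known for removing surplus and misplaced germ cells, and mice without Bax keep germ cells that would otherwise be lost.

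The promoters of the 3 members whose stage change passed the test are shown because these genes changed over the same interval. The sequences are RefSeq's for the mouse build GRCm38.p6 and run from 250 bases before to 50 bases after an annotated start of transcription, 5′ to 3′ on the gene's strand. They are those of the reference strain, not of 129 or MOLF. Capitals mark GC boxes, the letters GGGCGG on either strand. Bcl2l11 is given at chr2:128125788-128126087 on the plus strand, Bcl2 at chr1:106714241-106714540 on the minus strand and Bcl2l1 at chr2:152831679-152831978 on the minus strand.
Bcl2l11: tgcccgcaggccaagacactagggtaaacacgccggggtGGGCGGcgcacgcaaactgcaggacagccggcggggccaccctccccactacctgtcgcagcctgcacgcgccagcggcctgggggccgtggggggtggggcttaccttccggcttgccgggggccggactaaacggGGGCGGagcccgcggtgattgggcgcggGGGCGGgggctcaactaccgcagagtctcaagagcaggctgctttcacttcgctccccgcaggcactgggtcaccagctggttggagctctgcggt
Bcl2: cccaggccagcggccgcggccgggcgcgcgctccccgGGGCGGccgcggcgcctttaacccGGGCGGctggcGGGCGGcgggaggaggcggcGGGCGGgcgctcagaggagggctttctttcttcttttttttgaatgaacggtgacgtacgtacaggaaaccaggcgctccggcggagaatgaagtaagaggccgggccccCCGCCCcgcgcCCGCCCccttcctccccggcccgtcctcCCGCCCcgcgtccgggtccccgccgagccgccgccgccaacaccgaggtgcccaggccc
Bcl2l1: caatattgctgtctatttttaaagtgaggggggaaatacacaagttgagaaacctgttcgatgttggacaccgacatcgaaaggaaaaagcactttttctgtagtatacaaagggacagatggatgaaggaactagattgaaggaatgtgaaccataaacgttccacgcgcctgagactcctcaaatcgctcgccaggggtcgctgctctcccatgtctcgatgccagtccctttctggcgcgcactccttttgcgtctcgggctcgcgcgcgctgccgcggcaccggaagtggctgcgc

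The Bcl2l11 window held 3 GC boxes, 1 CCAAT box (CCAAT) and 1 FOXO site (GTAAACA, at base 24), with a GC content of 71.0%. The Bcl2 window held 7 GC boxes and 1 CRE core (TGACG), with a GC content of 76.0%. The Bcl2l1 window had a GC content of 52.3%, close to the median of 52.7% over all 32851 promoter windows, and held none of these letters and no TATAAA. Both strands were searched, and no 2 motifs overlapped. Of all windows, 35.7% held a GC box, 37.4% a CCAAT box, 20.8% a CRE core, 3.65% a FOXO site and 13.6% TATAAA. The sequences at hand held 3 windows for Bcl2l1 and 2 for Bcl2l11 among the 11 of the 8 members. None of the Bcl2l1 windows reached 152833803, the 5′ end of that gene on the minus strand, so a start there was not searched. The array does not show which start was used. The second Bcl2l11 window (chr2:128127325-128127624) held 3 GC boxes and 2 CCAAT boxes but no FOXO site, and the other 2 windows of Bcl2l1 held none of these motifs. A match is a description of letters and not of binding.

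Array medians lay between 8.1 and 8.27 on the log2 scale, and no value of a member was at 0, while 8 to 18 probe sets per array were. Markers of the labelled tissue were present, and the germ cell list (5 of 5 measured) summed to between 13.03 and 14.37 on the log2 scale over all arrays. Between E13.5 and E17.5 the tissue changed in make-up. The Sertoli cell sum went from 13.01 to 13.3 up to 13.95 to 14.23 (4 of 5 markers higher), and the fetal Leydig cell sum from 13 to 13.34 up to 15.09 to 15.34 (4 of 4 higher). The sum of 3 red blood cell markers went from 15.08 to 15.29 down to 8.81 to 8.97 (3 of 3 lower), and of 5 germ cell markers 2 were higher and 3 lower. The 129 arrays of E15.5 stood apart, with a skin keratinocyte sum of 12.88 to 12.9 against 9.51 to 9.93 on the other arrays, and a muscle and cartilage sum of 12.14 to 12.3 against 9.24 to 9.99. No marker was at 0 in any group. The 18S ribosomal control read 9.69 on replicate 1 of 129 at E13.5 and 6.88 to 8.38 on the others.

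Over the whole interval from E13.5 to E17.5, averaged over the strains, 3 of the 7 measured members passed the test. Bcl2l1 rose, and Bcl2l11 and Bcl2 fell. The test was limma's moderated test over all 45037 probe sets, and a gene was called at an adjusted p under 0.05. Over all 18032 genes 27.4% were called, 16.4% higher and 11.0% lower, so calls were common in this interval. The median difference was -0.21 over the 7 members and 0.055 over all genes on the log2 scale. In tissue measured in bulk, fewer cells of a type and less RNA per cell cannot be told apart, and the part of the cell type changes above in these differences was not tested.

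Bcl2l1, on chromosome 2 (152758732 to 152833803), encodes Bcl-xL, the survival protein that holds Bax and Bak1 in check. Its log2 signal in 129 was 10.74 and 10.57 at E13.5, 10.95 and 10.87 at E15.5, and 10.91 and 10.88 at E17.5. In M19 it was 10.50 and 10.52 at E13.5, 10.71 and 10.74 at E15.5, and 11.04 and 10.95 at E17.5. All 4 arrays of E17.5 lay above all 4 of E13.5. Bcl2l1 rose by 0.37 ± 0.08 (log2, standard error of the model), or 1.29-fold, with an adjusted p of 0.00608 in limma. In 129 the E15.5 and E17.5 means were 10.91 and 10.9, a difference smaller than the spread between arrays. In M19 the means were 10.51, 10.72 and 11, in the order of the stages, and neither step was called (adjusted p 0.407 and 0.234 in limma). The other 3 probe sets of Bcl2l1 were also higher at E17.5, by 0.13 to 0.19, and none of them was called.

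Bcl2l11, on chromosome 2 (128126038 to 128162547), encodes Bim, a BH3-only protein that binds every survival member and is a main trigger of death by withdrawal of growth factors. Its signal in 129 was 10.54 and 10.31 at E13.5, 9.91 and 9.90 at E15.5, and 9.86 and 10.02 at E17.5. In M19 it was 10.39 and 10.51 at E13.5, 10.23 and 10.01 at E15.5, and 10.13 and 9.81 at E17.5. The 4 arrays of E13.5 were the highest of the 12, and the E15.5 and E17.5 arrays overlapped. Bcl2l11 fell by 0.48 ± 0.10 over the whole interval, to 0.715 of its E13.5 level (adjusted p 0.00667 in limma). All 5 of its probe sets were called lower, with differences from -0.93 to -0.41. The largest of these differences was in the third brightest probe set, which read 8.95, 9.12, 9.03 and 9.15 on the E13.5 arrays and 8.16, 8.35, 7.80 and 8.24 on the E17.5 arrays. Probe sets of a gene share its transcripts and are not independent replicates.

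In the first step Bcl2l11 was called, and in the second it was not. From E13.5 to E15.5, averaged over strains, it fell by 0.42 ± 0.10 (adjusted p 0.0217 in limma), while the second step was -0.06 ± 0.10 (adjusted p 0.787). Its other 4 probe sets gave -0.71 to -0.34 in the first step and -0.23 to -0.045 in the second, with no call in the second, and the difference between the steps was not tested. It was the 1 of 7 members called in the first step, where 14.4% of all genes were called and 4.54% were lower. Over the whole interval 8 of the 26 probe sets of the members had been called, 1 higher and 7 lower (5 of them of Bcl2l11). Among all probe sets 22.5% were called, 12.2% higher and 10.3% lower. In the first step 4 of the 26 were called, all lower (3 of Bcl2l11 and 1 of Bcl2), against 11.0% called and 4.05% called lower among all probe sets. The 129 arrays of E15.5, those with the skin and muscle markers, enter this step. With M19 alone it was -0.33 ± 0.15 (adjusted p 0.303) and with 129 alone -0.52 ± 0.15 (adjusted p 0.0785), and neither was called. The third brightest probe set of Bcl2l11 was called in both strains, at -0.73 ± 0.17 in 129 (adjusted p 0.031 in limma) and -0.70 ± 0.17 in M19 (adjusted p 0.0329). The call of the brightest probe set in the averaged step was lost in 6 of the 12 fits that left out 1 array, with adjusted p between 0.0514 and 0.104. At E13.5 the arrays concerned were replicate 1 of 129 and both of M19, and at E15.5 both of 129 and replicate 2 of M19. The whole-interval calls of Bcl2l11 and Bcl2l1 were made in all 12 such fits, with an adjusted p of at most 0.0373 and 0.033.

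**Figure D1:**
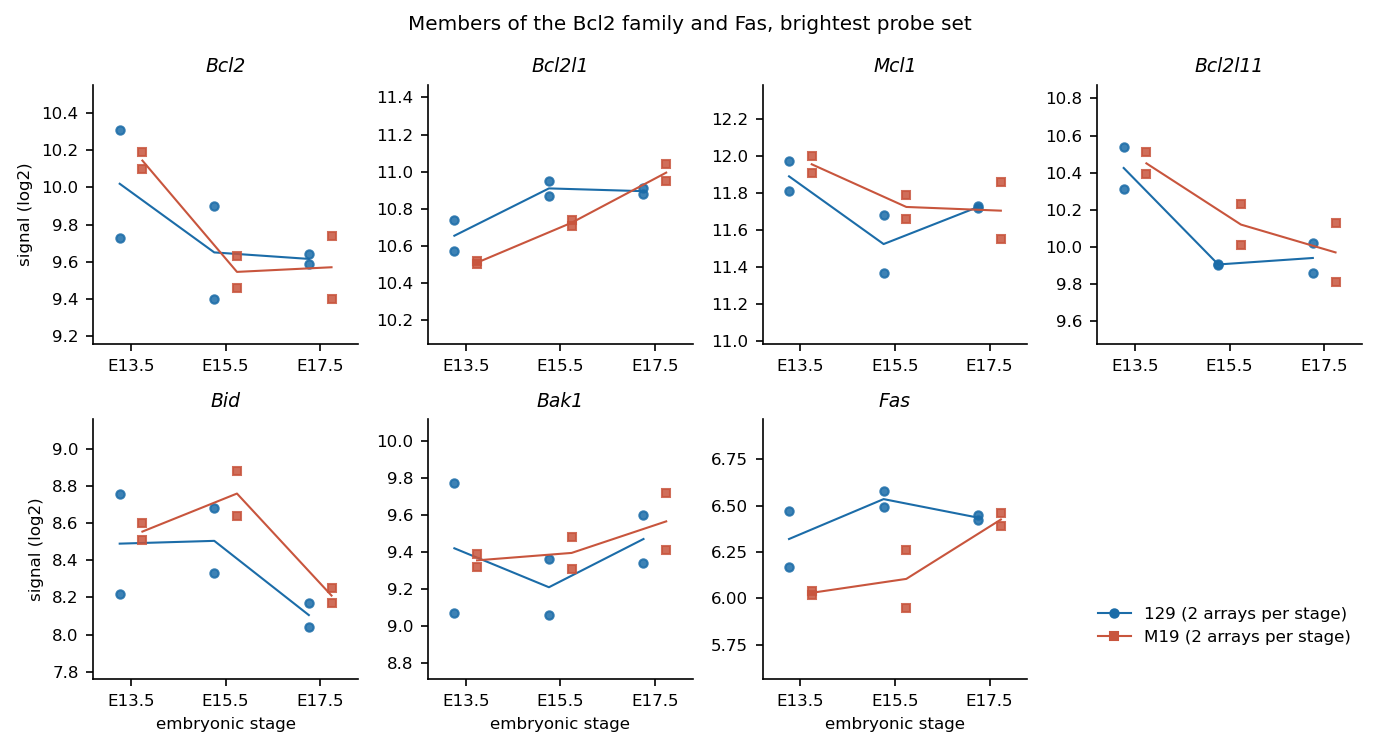
Log2 signal of the brightest probe set of 7 members (vertical axis, its own range in each panel) against embryonic stage, with 1 point per array and lines through the mean of the 2 arrays of each strain. Bcl2l11 and Bcl2l1 show no overlap between the 4 arrays of E13.5 and the 4 of E17.5. Fas shows the M19 arrays under the 129 arrays at E13.5 and E15.5 but not at E17.5, and its strain difference was not called.

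Bcl2, on chromosome 1 (106538176 to 106714290), is the survival gene after which the family is named. Its signal in 129 was 9.73 and 10.31 at E13.5, 9.40 and 9.90 at E15.5, and 9.64 and 9.59 at E17.5. In M19 it was 10.10 and 10.19 at E13.5, 9.63 and 9.46 at E15.5, and 9.40 and 9.74 at E17.5. The stages overlapped, with replicate 1 of 129 at E13.5, at 9.73, inside the range of the later arrays. Bcl2 fell by 0.49 ± 0.15 over the whole interval (adjusted p 0.037 in limma), to 0.712 of its E13.5 level.

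The probe sets of Bcl2 did not move together. Of 5, the brightest and the third brightest were called lower, the dimmest was at -0.32 (adjusted p 0.14), and the remaining pair were above 0, at 0.23 (adjusted p 0.31) and 0.14 (adjusted p 0.42). The third brightest read 8.73, 8.81, 8.89 and 8.77 at E13.5, then 8.53 and 8.58 in 129 but 8.15 and 7.99 in M19 at E15.5, and 8.03, 8.08, 8.02 and 8.15 at E17.5. No array of E17.5 reached the lowest of E13.5, and the fall was 0.73 ± 0.08 (adjusted p 8.75e-05). In M19 its first step was -0.76 ± 0.11 (adjusted p 0.00232). The call on the brightest probe set held in 4 of the 12 fits without 1 array. It was lost without replicate 2 of 129 at E13.5 (-0.34, adjusted p 0.0983), without either M19 array of E13.5 (adjusted p 0.0811 and 0.115), without either M19 array of E15.5 (0.0535 each), without either 129 array of E17.5 (0.0855 and 0.0997) and without replicate 1 of M19 at E17.5 (0.131).

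Mcl1, on chromosome 3 (95656944 to 95663179), encodes a survival protein of short life that binds Bak1 and Bcl2l11. Its signal in 129 was 11.81 and 11.97 at E13.5, 11.37 and 11.68 at E15.5, and 11.72 and 11.73 at E17.5. In M19 it was 11.91 and 12.00 at E13.5, 11.79 and 11.66 at E15.5, and 11.55 and 11.86 at E17.5. One M19 array of E17.5 reached into the E13.5 range, and the difference over the whole interval was -0.21 (95% interval -0.43 to 0.02, adjusted p 0.18 in limma). All 6 probe sets of Mcl1 gave a difference below 0, from -0.18 to -0.30, and none was called. In the first step the 4 arrays of E13.5 lay above the 4 of E15.5, with a difference of -0.30 ± 0.10 (adjusted p 0.1).

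**Figure D2:**
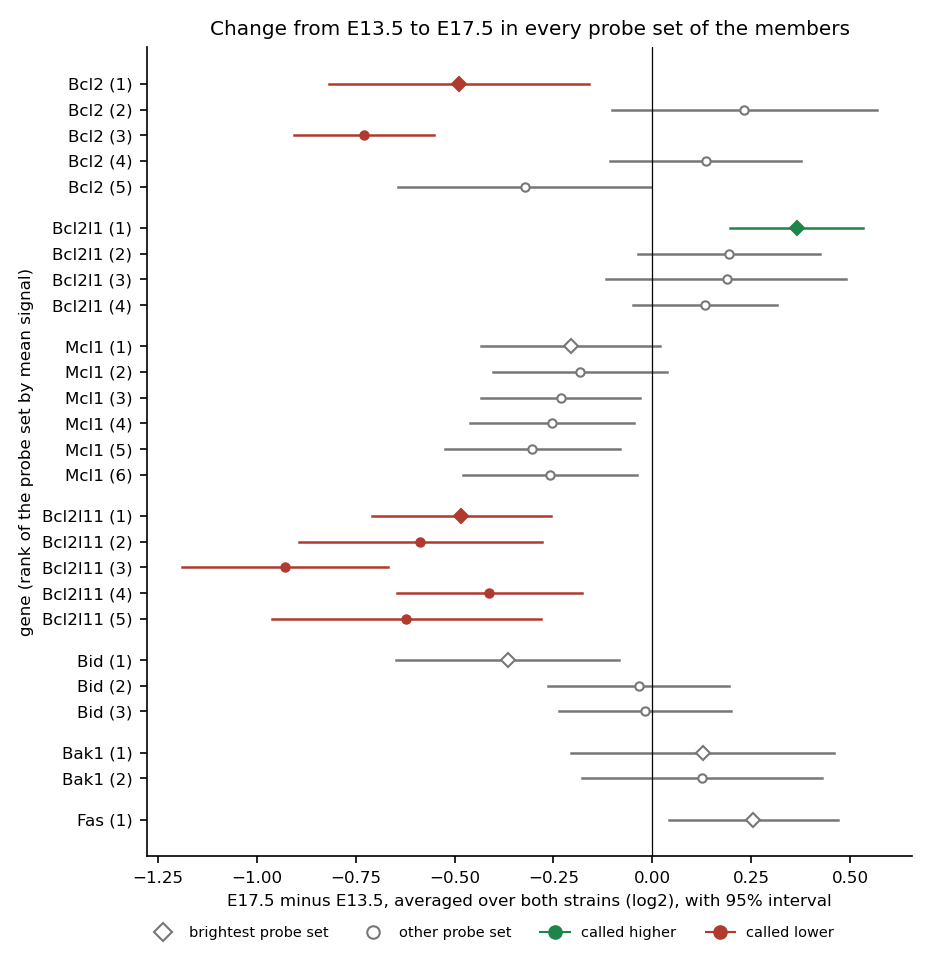
Difference in log2 signal, E17.5 minus E13.5 averaged over both strains, for each of the 26 probe sets of the members (rows, numbered by mean signal within a gene), with 95% intervals of the model. All 5 probe sets of Bcl2l11 lie left of 0 and are called, while those of Bcl2 lie on both sides, from -0.73 to 0.23.

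Bid, on chromosome 6 (120893119 to 120917062), is the BH3-only gene whose protein carries the Fas signal to the mitochondria. Its signal in 129 was 8.22 and 8.76 at E13.5, 8.33 and 8.68 at E15.5, and 8.04 and 8.17 at E17.5. In M19 it was 8.51 and 8.60 at E13.5, 8.88 and 8.64 at E15.5, and 8.17 and 8.25 at E17.5. All 4 arrays of E17.5 lay below all 4 of E15.5. The second step was -0.48 ± 0.13 (95% interval -0.76 to -0.20) with an adjusted p of 0.0501 in limma, just outside the threshold. Over the 12 fits that left out 1 array the difference ran from -0.565 to -0.39. It stayed at -0.478 without replicate 1 or replicate 2 of 129 at E13.5, since these arrays do not enter this step. The adjusted p in limma was 0.0305 with dim probe sets left out and 0.038 with a variance trend. It was 0.0302 with the arrays of the compared groups only and 0.0368 with adjustment over 1 probe set per gene. Of 9 changes of processing, 5 called the step. With the second brightest probe set the step was -0.054 (adjusted p 0.808). The other pair of Bid probe sets differed by -0.03 and -0.02 over the whole interval, against -0.37 (adjusted p 0.0629) for the brightest.

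Bak1, on chromosome 17 (27019812 to 27028627), encodes the pore-forming effector that works beside Bax. Its signal in 129 was 9.07 and 9.77 at E13.5, 9.06 and 9.36 at E15.5, and 9.34 and 9.60 at E17.5. In M19 it was 9.32 and 9.39 at E13.5, 9.31 and 9.48 at E15.5, and 9.72 and 9.41 at E17.5. The ranges of the 3 stages overlapped, and the 2 arrays of 129 at E13.5 spanned nearly the range of all 12. Its difference over the whole interval was 0.13 (95% interval -0.21 to 0.46, adjusted p 0.594).

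Fas, on chromosome 19 (34290647 to 34327775), is the only member on the chromosome that the strains do not share. Its single probe set had a mean of 6.31, under the median of 8.17 over all probe sets, where signal is dim. In 129 it read 6.47 and 6.17 at E13.5, 6.58 and 6.49 at E15.5, and 6.45 and 6.42 at E17.5. In M19 it read 6.02 and 6.04 at E13.5, 6.26 and 5.95 at E15.5, and 6.39 and 6.46 at E17.5. Both M19 arrays lay under both 129 arrays at E13.5 and at E15.5, and the strains overlapped at E17.5. No strain difference of Fas was called. The difference over the whole interval was 0.26 (95% interval 0.04 to 0.47, adjusted p 0.0846 in limma).

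Replicate 1 of 129 at E13.5, the array with the high 18S reading, entered several of these values. Without it the differences over the whole interval were -0.50 for Bid and 0.33 for Fas, against -0.37 and 0.26 with all 12 arrays. In the first step they were -0.63 for Bcl2, 0.28 for Bcl2l1 and -0.37 for Bcl2l11, against -0.48, 0.23 and -0.42.

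Within single strains and in the second step no member was called. From E13.5 to E15.5 the count was 0 of 7 in 129, against 6.34% of all genes, and 0 of 7 in M19, against 7.44%. From E15.5 to E17.5 it was 0 of 7 in 129, against 2.43%, in M19, against 3.26%, and averaged over strains, against 9.11%. At an unadjusted p under 0.05 these counts, in the same order, were 3, 2, 1, 3 and 1 of 7. The share of all genes under that unadjusted threshold was not counted, so these counts are not read as a result. Over these 5 comparisons the lowest end of a member's 95% interval was -1.06 and the highest 0.72, from different comparisons. Differences of the size called over the whole interval could thus have gone uncalled.

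Between the strains no member was called by limma at any stage. The share of all genes called was 0.0333% at E13.5, 0.688% at E15.5, 0.0943% at E17.5 and 0.466% averaged over stages. At an unadjusted p under 0.05 the member counts were 0, 1, 0 and 1 of 7, and in both cases the gene was Fas. The share of all genes at that unadjusted threshold was not counted. The difference of Fas, M19 minus 129, was -0.29 ± 0.14 at E13.5 (adjusted p 1), -0.43 ± 0.14 at E15.5 (adjusted p 0.385) and -0.24 ± 0.08 averaged over stages (adjusted p 0.699). At E17.5 its difference was -0.003 ± 0.14. The strain by stage interaction, which tests whether the strain difference changes between stages, called 0 of 7 members, 0 of them at an unadjusted p under 0.05 (Fas 0.127), against 0.205% of all genes. Chromosome 19 of M19 is from another strain, and the effect of a sequence difference under the Fas probes on its signal was not tested.

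The intervals show how large a strain difference these arrays leave possible. Over the 7 members the lowest and highest ends of the 95% intervals were -0.60 and 0.59 at E13.5 and -0.73 and 0.66 at E15.5. They were -0.52 and 0.57 at E17.5 and -0.42 and 0.37 averaged over stages, all in log2 units of M19 minus 129. The lowest and highest ends need not belong to the same gene. The arrays of the 2 strains did not overlap for 2, 3 and 1 of 7 members at E13.5, E15.5 and E17.5. The share over all genes was not counted, so this separation is not read as a difference. At E15.5, the difference was 0.22 ± 0.15 for Bcl2l11 (adjusted p 0.843 in limma) and -0.19 ± 0.11 for Bcl2l1 (adjusted p 0.789). The 129 arrays of this stage are those with the skin and muscle markers, of which 5 of 5 and 4 of 4 were called lower in M19, and their part in these differences was not tested.

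**Figure D3:**
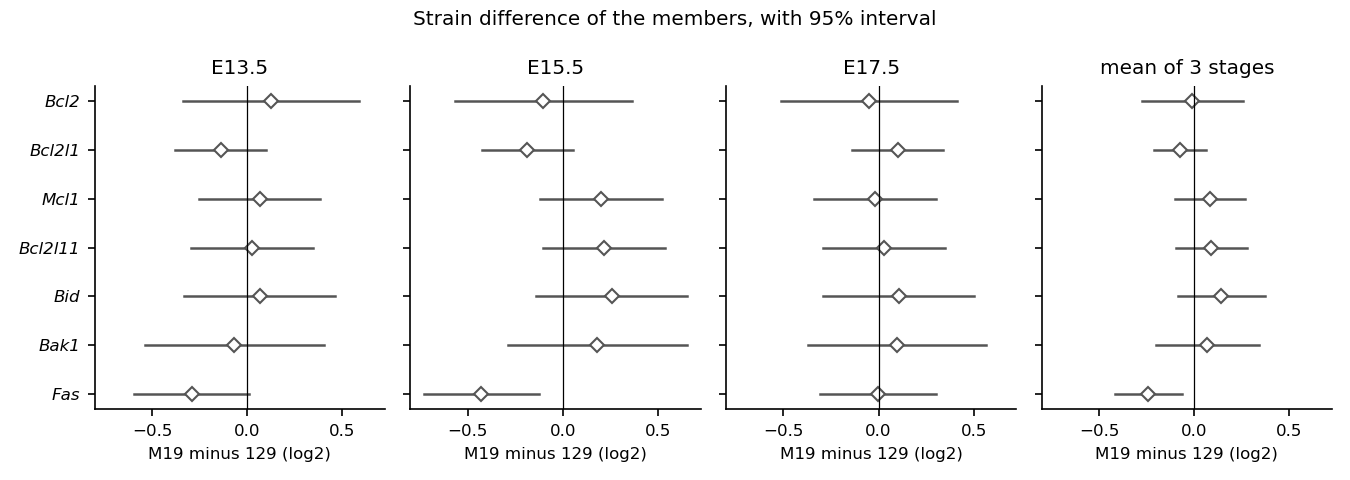
Difference in log2 signal, M19 minus 129, for the brightest probe set of 7 members at each stage and averaged over stages, with 95% intervals of the model. Intervals of all members cross 0 at E13.5 and E17.5, and those of Fas lie below 0 at E15.5 and in the average, where its adjusted p was 0.385 and 0.699.

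The genes whose pattern over the 12 arrays was most like a called member were sought among 12037 genes with a mean above the median signal. For Bcl2l11 they were Cdc34, Pfdn4 and Mrpl13 (Pearson's r 0.952, 0.951 and 0.951). For Bcl2l1 they were Ap1b1, Dusp26 and Afg1l (r 0.979, 0.966 and 0.965). For Bcl2 they were Glrb, Fli1 and Zfp64 (r 0.982, 0.981 and 0.978). These are descriptions over 12 arrays that share stages and cell type changes.

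The rest of the apoptosis pathway was read through lists of 63 genes, of which 55 had a probe set of their own. The remaining genes of the lists were not analysed here. Over the whole interval 19 of 55 were called, 12 higher and 7 lower (63.2% higher), beside 27.4% of all genes. With each array centred on its median the split was 9 higher and 10 lower (47.4% higher), while over all genes the share of calls that were higher went from 59.9% to 51.8%. The median difference was 0.076, against 0.055 over all genes. Without 1 array the count of higher genes ran from 4 (without replicate 1 or 2 of M19 at E13.5) to 15. It was 5 and 6 without replicate 1 or 2 of 129 at E17.5, 6 and 7 without replicate 1 or 2 of M19 at E17.5 and 7 without replicate 2 of 129 at E13.5. The count of lower genes ran from 4 (without replicate 2 of M19 at E13.5 or replicate 1 of M19 at E17.5) to 9. Pmaip1, Bmf, Bcl2l2, Cdkn1a, Mdm2, Casp9, Faf1 and Huwe1 were called in all 12 fits without 1 array, and the other 11 calls were each lost in some of them.

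Among the other BH3-only and effector genes, 5 of 10 were called, 3 higher and 2 lower. Over all genes 27.4% were called, 16.4% higher and 11.0% lower. Pmaip1 encodes Noxa, a BH3-only protein that binds Mcl1. Its signal was 8.86 and 9.52 in 129 and 9.17 and 9.30 in M19 at E13.5, then 7.49 and 8.34 in 129 and 9.16 and 8.93 in M19 at E15.5, and 6.89 to 7.55 on the 4 arrays of E17.5. The E17.5 arrays lay below all of E13.5, and at E15.5 the M19 arrays stayed in the E13.5 range while the 129 arrays did not. These 129 arrays of E15.5 are those with the skin and muscle markers. Their germ cell sum was 13.79 to 14, against 14.29 to 14.37 in M19 at that stage. The part of either in the Pmaip1 values was not tested. Pmaip1 fell by 2.07 ± 0.21 (adjusted p 4.83e-05 in limma), the largest difference of the 55 genes. Its strain difference at E15.5 was 1.13 ± 0.30 (adjusted p 0.226) and its interaction had an unadjusted p of 0.0483 and an adjusted p of 1, so neither was called. In M19 the first step was -0.19 (adjusted p 0.889) and the second was called (-1.82 ± 0.30, adjusted p 0.0109). In 129 the first step was called (-1.27 ± 0.30, adjusted p 0.0337) and the second was -0.86 (adjusted p 0.224). The M19 call was made in 9 of the 12 fits without 1 array and the 129 call in 4.

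Bmf, a BH3-only gene linked to loss of cell attachment, read 9.94 to 10.18 on the 4 arrays of E13.5, 9.26 to 9.69 at E15.5 and 8.86 to 9.34 at E17.5. It fell by 0.85 ± 0.13 (adjusted p 0.000923 in limma) on its brightest probe set, while its other pair of probe sets differed by -0.01 and -0.002. The higher genes of this list were Bad, on chromosome 19 like Fas (0.35, adjusted p 0.0409, with -0.09 on its second probe set), Hrk (0.32, adjusted p 0.0198, with -0.17 on its second probe set) and Bnip3 (0.29, adjusted p 0.0413), the last named outside the rule for named genes and after its value was seen. The calls of Bad, Hrk and Bnip3 were made in 6, 8 and 3 of the 12 fits without 1 array.

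Of 4 other survival genes Bcl2l2 alone was called, beside 27.4% of all genes. Bcl2l2 encodes Bcl-w, which male germ cells and Sertoli cells need in the adult testis. It read 9.55 to 9.85 at E13.5, 9.98 to 10.24 at E15.5 and 10.15 to 10.37 at E17.5, with no overlap of E13.5 with either later stage. It rose by 0.46 ± 0.09 (adjusted p 0.00449 in limma). Its other 3 probe sets gave 0.13, -0.14 and 0.23, and none was called.

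Of the 8 genes of p53 and its targets with a probe set, 3 were called by their brightest probe set, beside 27.4% of all genes. Ccng1, named outside the rule for named genes and after its value was seen, was not (0.32, adjusted p 0.0757 in limma). Its other probe sets were called higher (0.40 and 0.51). Cdkn1a, the p53 target that stops the cell cycle, read 9.46 to 9.60 at E13.5, 8.78 to 8.93 at E15.5 and 8.39 to 8.54 at E17.5, with no overlap between any stages. It fell by 1.05 ± 0.07 (adjusted p 2.44e-06 in limma), and by 0.83 ± 0.10 on its second probe set. Mdm2, which turns p53 over, read 10.91 to 11.04 at E13.5, 11.37 to 11.47 at E15.5 and 11.32 to 11.58 at E17.5. Mdm2 rose by 0.50 ± 0.08 (adjusted p 0.00155), and Sesn1 was higher by 0.34 (adjusted p 0.0171), a call made in 8 of the 12 fits without 1 array.

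**Figure D4:**
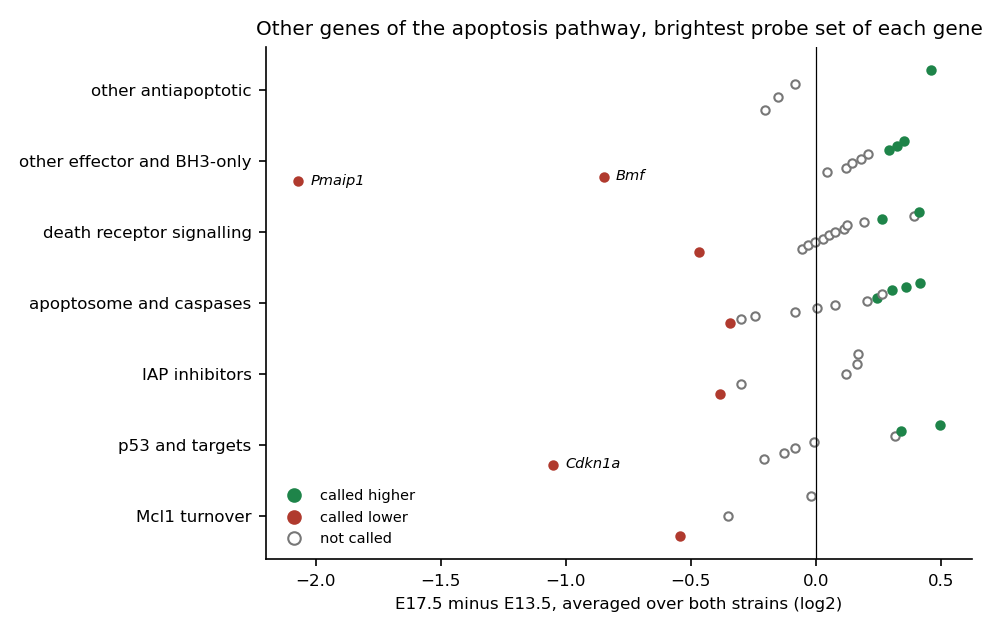
Difference in log2 signal, E17.5 minus E13.5 averaged over both strains, of the brightest probe set of 55 other apoptosis genes, 1 point per gene in 7 lists (rows). Of the 19 called genes 12 lie right of 0 and 7 left, and Pmaip1 (-2.07), Cdkn1a (-1.05) and Bmf (-0.85) lie farthest from 0.

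In the group of the apoptosome and caspases, which carry the signal after the mitochondria open, 4 of 12 genes were higher and 1 lower. The shares over all genes were 16.4% higher and 11.0% lower. Casp9, the caspase of the apoptosome, read 9.49 to 9.82 at E13.5, 10.02 to 10.14 at E15.5 and 9.90 to 10.12 at E17.5. It rose by 0.42 ± 0.09 (adjusted p 0.00759 in limma). Its other probe sets gave 0.13 and 0.23 and were not called. Endog (0.36), Cycs (0.30) and Aifm1 (0.24), which encode proteins set free from mitochondria, were also called higher, and Casp2 was called lower (-0.34). Without 1 array the calls of Endog and Cycs were each made in 6 of 12 fits and that of Casp2 in 8. That of Aifm1, which is named for its first step, was made in 2 of 12, those without a 129 array of E13.5. Aifm1 read 11.02 to 11.09 at E13.5, 11.66 to 11.79 at E15.5 and 11.23 to 11.39 at E17.5, so its highest stage was the middle one.

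Around the death receptors, 2 of 13 genes were higher and 1 lower, beside 16.4% higher and 11.0% lower over all genes. Faf1, whose protein binds Fas, read 10.76 to 10.86 at E13.5, 11.27 to 11.59 at E15.5 and 11.12 to 11.31 at E17.5, and rose by 0.41 ± 0.08 (adjusted p 0.00421 in limma). Its second probe set rose by 0.44 ± 0.12. Tnfrsf1a was higher (0.27, adjusted p 0.0271), and Faim, an inhibitor of death by Fas, was lower (-0.47, adjusted p 0.0147), calls made in 5 and 9 of the 12 fits without 1 array. Fasl, the ligand of Fas, named here outside the rule for named genes and after its value was seen, differed by 0.39 ± 0.13 with an adjusted p of 0.051, and by 0.04 on its second probe set.

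Of 3 genes that mark the Mcl1 protein for turnover or spare it, Huwe1 alone was called by its brightest probe set. The share of all genes called was 27.4%. Usp9x of this list, named outside the rule for named genes and after its value was seen, gave -0.35 on its brightest (adjusted p 0.0859 in limma). Its other probe sets gave -0.22 to -0.73, and those at -0.339, -0.637, -0.642 and -0.728 were called lower. Huwe1, a ubiquitin ligase of Mcl1, read 11.50 to 11.63 at E13.5, 11.14 to 11.35 at E15.5 and 10.87 to 11.11 at E17.5. Huwe1 fell by 0.54 ± 0.09 (adjusted p 0.00149 in limma). Its second probe set was called lower (-0.68), and its dimmer ones, at -0.20 to -0.25, were not called. Of 5 inhibitors of apoptosis, Birc5, which also acts in cell division, was lower (-0.38, adjusted p 0.0244, called in 7 of the 12 fits without 1 array). The others were not called by their brightest probe set, beside 27.4% of all genes called. Birc6 of this list was named outside the rule for named genes and after its value was seen. Its dimmest probe set was called lower (-0.64, adjusted p 0.0189 in limma), and its other probe sets were not called.

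In the steps, 11 of 55 pathway genes were called from E13.5 to E15.5 averaged over strains, 7 higher and 4 lower, beside 14.4% of all genes. From E15.5 to E17.5 it was 4 of 55, all lower, beside 9.11% of all genes. Without 1 array the first count ran from 6 to 12. It was 6 or 7 when either M19 array of E13.5 (6 for replicate 1), replicate 1 of 129 at E15.5 or either M19 array of E15.5 was left out. The second count ran from 2 (without replicate 1 of M19 at E15.5) to 8 (without either 129 array of E13.5, 3 higher and 5 lower). Aifm1 (0.64 ± 0.08, then -0.40 ± 0.08) and Fbxw7, a ubiquitin ligase subunit (0.50 ± 0.10, then -0.52 ± 0.10), were called higher in the first step and lower in the second, the second calls in 10 and 8 of the 12 fits without 1 array. Diablo, whose protein blocks inhibitors of apoptosis, was higher by 0.51 ± 0.09 in the first step (adjusted p 0.00349 in limma). Between the strains and in the interaction 0 of 55 were called by limma. At an unadjusted p under 0.05 the counts were 0, 2, 0 and 1 at E13.5, E15.5, E17.5 and in the average. It was 1 in the interaction. The share of all genes at that unadjusted threshold was not counted.

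**Figure D5:**
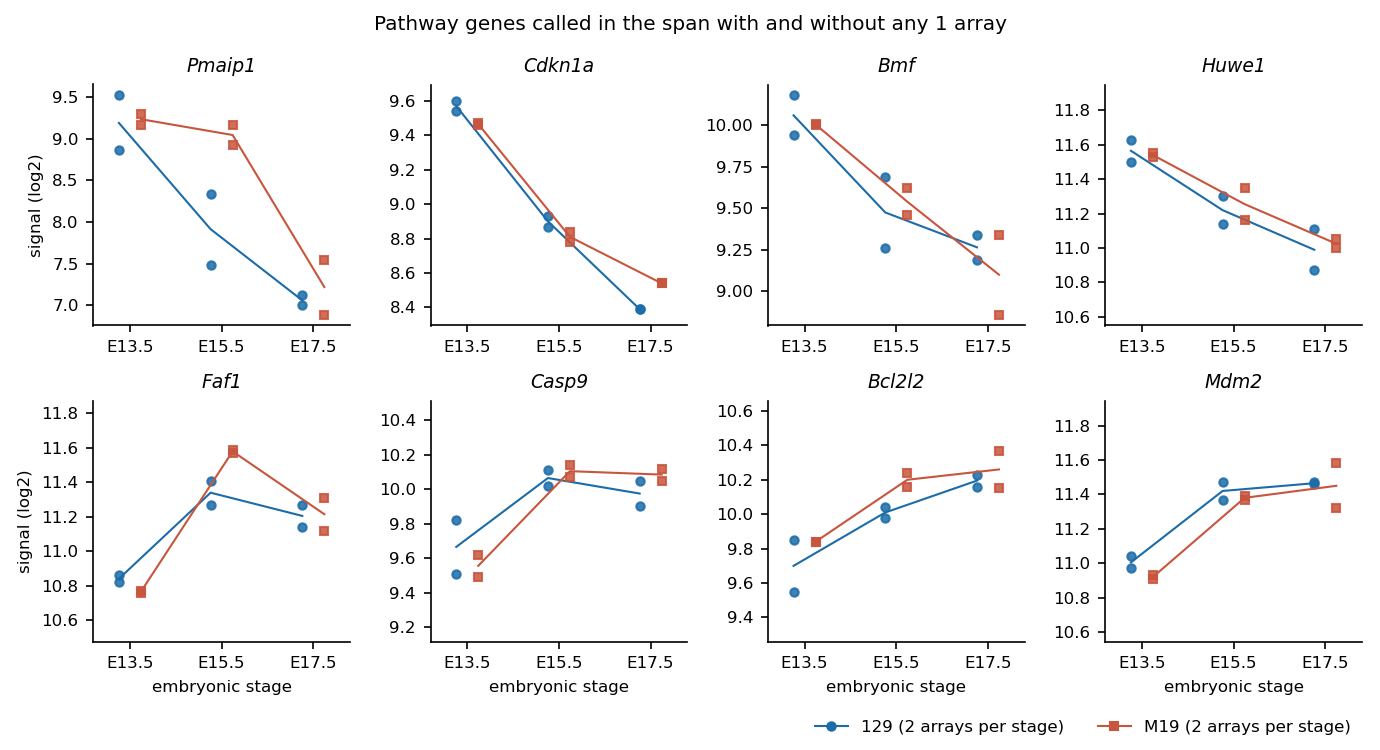
Log2 signal (vertical axis, its own range in each panel) of the 8 pathway genes called over the whole interval in every fit without 1 array, against embryonic stage, with 1 point per array and lines through the mean of the 2 arrays of each strain. In each panel the E17.5 arrays do not overlap the E13.5 arrays, and for Pmaip1 the 2 strains lie apart at E15.5.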

How the data were processed

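Total RNA was hybridised to 12 Affymetrix whole-genome mouse arrays, per the labels. The authors deposited 1 value for each of 45101 probe sets per array. The summary method, background correction, normalization and log base are not given in the sources used here. The deposited values were taken as log2 signal, because they run from 0 to 15 with array medians near 8.17. Arrays give no read depth, so precision rests on how many arrays there are.

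After 64 control probe sets were left out, 45037 remained. The platform annotation pairs 34945 of them with 1 gene, 932 with several and 9160 with none. Symbols of 34741 matched RefSeq (GRCm38.p6), which gave 18032 genes. Each gene was represented by the probe set with the highest mean, the rule also used for the members.

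A linear model of 6 group means, without a replicate block, was fitted to all 12 arrays with limma 3.58.1 in R 4.3.3 (6 residual and 4.82 prior degrees of freedom). Tests were two-sided, with Benjamini-Hochberg adjustment over all 45037 probe sets in each of 12 comparisons and a threshold of 0.05. Intervals are 95% intervals of the model. Deviations of same-numbered arrays were compared between groups (15 correlations from -0.37 to 0.54). Since 6 of the 15 were over 0.1 and not all, the numbers were not taken as pairs. Sequences were handled with Python 3.11.15 and pandas 2.3.3, and plots made with matplotlib 3.10.9.

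Tested on simulated data with 200 of 45037 probe sets changed over the whole interval, the procedure made 164 calls, of which 10 were false. The share recovered was 35.8% at a change of 0.5 log2 units, 95.5% at 1 and 100% at 2. In the data 22.5% of all probe sets were called over this interval, so these shares need not hold there.

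The members and the gene lists were chosen with earlier results of these data known. Pathway genes are named where they were called, up to 4 per list and comparison by size in any of the comparisons, and like genes are the 3 with the highest correlation. Alternatives were quantile normalization, median centring, a filter on dim probe sets, another variance model, the replicate block, smaller sets of arrays, other probe sets of a gene, another adjustment and leaving out each array.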

Additional observations from a re-analysis of the deposited data

How the results depend on the processing

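Over the whole interval, from E13.5 to E17.5, the count of called members was 3 and ran from 2 to 5 when 1 array was left out, and was 1 with the second brightest probe set of each gene, where Bcl2 turned to 0.23 (adjusted p 0.31 in limma) and Bcl2l1 gave 0.19 (adjusted p 0.217). In the other 8 settings it was 3 or 4. With the mean of all probe sets Bcl2 gave -0.24 (adjusted p 0.0634) and Mcl1 (-0.24, adjusted p 0.0342) and Fas (0.26, adjusted p 0.0496) were called, and Bid was with dim probe sets left out (adjusted p 0.0424). From E13.5 to E15.5 averaged over strains, 1 member was called. It became 3 with quantile normalization, with dim probe sets left out and with a variance trend and robust estimation, 2 with the replicate block, 0 with the second brightest probe set, and 0 to 2 without 1 array. From E15.5 to E17.5 averaged over strains, 0 members were called, and 1 (Bid) with dim probe sets left out, with the variance trend, with the replicate block (adjusted p 0.0385), with the arrays of the compared groups only and with adjustment over 1 probe set per gene, and 0 to 1 without 1 array. Within strains the first step called 0 members, 1 in 129 with dim probe sets left out or with the mean of all probe sets, and 1 in M19 with the compared groups only. With the replicate block Bid was also called over the whole interval (adjusted p 0.0471), and Bcl2 in the first step (adjusted p 0.0366). No setting run called a member between the strains or in the interaction.

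Counts over all genes moved too. Over the whole interval 4938 genes were called, 3012 to 6783 without 1 array and 2209 to 5669 in the other settings. In the first and second averaged steps 2595 (1551 to 2815, 1153 to 3126) and 1643 (665 to 2612, 630 to 2224) were called. Within strains the counts were 1144 (669 to 1376, 273 to 1509) and 439 (129 to 700, 161 to 696) in 129, and 1342 (561 to 1722, 537 to 2735) and 587 (117 to 1027, 215 to 970) in M19. Between strains they were 6 (1 to 7, 0 to 11), 124 (44 to 172, 65 to 187) and 17 (4 to 22, 9 to 25) at the 3 stages, 84 (47 to 113, 10 to 125) averaged and 37 (21 to 48, 11 to 73) in the interaction. Of the 55 pathway genes, 6 were higher with the arrays of the compared groups only, and 6 higher and 4 lower with the second brightest probe set. The cause of these shifts was not tested. In the simulation of the whole interval 35.8% of changes of 0.5 log2 units were recovered. It changed 200 of 45037 probe sets, while in the data 22.5% of all probe sets were called. The adjustment differs between these settings, so the share of changes missed in the data is not known from it.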
